A study of Mus musculus with 35 samples.

Results

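Keratins are encoded in mouse by a pair of gene clusters, and their chromatin was followed here through 3 histone marks in 13 deposited peak lists. The members were the protein-coding genes on GRCm38 whose symbol starts with Krt and a number, leaving out the Krtap genes. The rule found 53 of 21631 protein-coding genes on the autosomes and X, 27 on chromosome 11 and 26 on chromosome 15. The chromosome 11 cluster spanned chr11:99232761-100269951, from Krt222 to Krt42, and the chromosome 15 cluster chr15:101348315-102032026, from Krt80 to Krt18. The study mapped H3K4me3, H3K27me3 and H3K36me3 with CATCH-seq, an immunoprecipitation of MNase-cut native chromatin to which carrier DNA is added to limit losses. Its cultured cells came from H18, 1 line of mouse embryonic stem cells with Prdm1-mVenus and Dppa3-ECFP reporters. The cultured stages were oogonia-like cells (c7) and oocyte-like cells taken at c13 and at c34. Oocytes of animals were taken at E18.5, from mice with the same reporters, and at the germinal vesicle (GV) stage, from BDF1 mice. The genotype label of all 5 stages was WT, so reporter background and strain changed together between E18.5 and GV oocytes.

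Keratins form the intermediate filaments of epithelial cells from obligate pairs of a type I and a type II chain. Type I genes lie on mouse chromosome 11 and type II genes on chromosome 15, except that the type I gene Krt18 sits beside its type II partner Krt8 on chromosome 15. Each epithelium, such as simple epithelium, epidermis, oral mucosa, cornea, inner root sheath or hair shaft, uses its own pairs, and germ cells are not epithelial. H3K4me3 is found at promoters of active and poised genes and, in growing mouse oocytes, also in broad domains outside promoters. H3K27me3 is laid down by Polycomb repressive complex 2, and H3K36me3 follows transcribed bodies and is also known to mark intergenic DNA in oocytes.

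Promoter sequences are given beside the H3K4me3 calls, since CpG-rich promoters are usual sites of this mark. They were read from RefSeq for GRCm38.p6, as 300 bases from 250 before to 50 after an annotated start, 5′ to 3′ on the strand of the gene. An annotated start was given for 36 of the 53 members and 17274 of all 21631 genes. Capitals mark CpG dinucleotides and the letters TATAAA, the core of the TATA box, where they begin 50 to 15 bases before the start; the same letters elsewhere stay in lower case. Krt28 and Krt42 are shown as the chromosome 11 members with the most CpG among those marked by H3K4me3 in GV oocytes and the fewest among those unmarked, with ties settled by the ratio of observed to expected CpG. Krt7 and Krt77 are the same choices on chromosome 15. The choice used calls at either gene end, and the GV peak of Krt7 lay at its far end and not at the start shown. Krt8 and Krt18 are shown as the pair of simple epithelium.
Krt28 (chr11:99374854-99375153, minus strand, 10 CpG): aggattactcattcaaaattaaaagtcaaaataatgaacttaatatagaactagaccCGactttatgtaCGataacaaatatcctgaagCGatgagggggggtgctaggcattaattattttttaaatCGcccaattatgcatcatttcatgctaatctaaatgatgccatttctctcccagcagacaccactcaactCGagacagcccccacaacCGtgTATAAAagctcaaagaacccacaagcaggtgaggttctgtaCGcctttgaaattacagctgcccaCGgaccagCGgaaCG
Krt42 (chr11:100269902-100270201, minus strand, 2 CpG): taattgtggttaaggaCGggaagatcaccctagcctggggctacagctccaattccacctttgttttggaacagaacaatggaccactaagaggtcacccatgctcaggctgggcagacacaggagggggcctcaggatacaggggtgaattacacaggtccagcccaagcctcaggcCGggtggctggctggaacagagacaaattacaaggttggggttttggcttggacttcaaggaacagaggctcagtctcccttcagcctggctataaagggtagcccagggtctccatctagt
Krt7 (chr15:101412153-101412452, plus strand, 21 CpG): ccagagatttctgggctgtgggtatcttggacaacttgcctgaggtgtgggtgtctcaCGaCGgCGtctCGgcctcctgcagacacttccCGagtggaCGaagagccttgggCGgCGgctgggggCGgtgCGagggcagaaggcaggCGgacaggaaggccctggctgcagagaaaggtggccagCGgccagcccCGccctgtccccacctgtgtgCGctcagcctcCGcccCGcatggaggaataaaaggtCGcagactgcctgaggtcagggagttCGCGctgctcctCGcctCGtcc
Krt77 (chr15:101869656-101869955, minus strand, 3 CpG): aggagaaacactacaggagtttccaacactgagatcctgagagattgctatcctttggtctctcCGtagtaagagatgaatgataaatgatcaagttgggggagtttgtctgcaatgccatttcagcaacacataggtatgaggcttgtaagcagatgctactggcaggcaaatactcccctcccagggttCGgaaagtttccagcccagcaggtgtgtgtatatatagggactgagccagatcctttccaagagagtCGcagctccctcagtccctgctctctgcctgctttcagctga
Krt8 (chr15:102004293-102004592, minus strand, 6 CpG): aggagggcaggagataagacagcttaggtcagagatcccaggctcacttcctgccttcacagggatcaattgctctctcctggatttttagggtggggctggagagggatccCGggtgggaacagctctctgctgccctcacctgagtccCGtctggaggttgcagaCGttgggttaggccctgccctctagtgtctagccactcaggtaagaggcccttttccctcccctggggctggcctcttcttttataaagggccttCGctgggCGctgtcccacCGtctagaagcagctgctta
Krt18 (chr15:102027966-102028265, plus strand, 17 CpG): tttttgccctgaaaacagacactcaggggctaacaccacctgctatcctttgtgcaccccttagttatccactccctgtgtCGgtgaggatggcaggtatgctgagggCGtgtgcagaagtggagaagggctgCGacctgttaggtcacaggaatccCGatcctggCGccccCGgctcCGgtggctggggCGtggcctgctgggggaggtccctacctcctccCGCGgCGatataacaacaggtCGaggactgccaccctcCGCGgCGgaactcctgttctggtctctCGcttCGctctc

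The 13 lists comprised 4 for H3K4me3, 5 for H3K27me3 and 4 for H3K36me3, with H3K27me3 alone at c7. Each was the single list of its stage and mark, and nothing in it gave a height, a score or a depth. With no second list of any stage and mark, the spread between replicates is unknown, and all counts are descriptions without a test. Per the labels, 1 to 4 libraries stood behind a list, and the H3K4me3 and H3K27me3 lists of GV oocytes rested on 1 library each. Edges of H3K4me3 peaks were multiples of 1 kb, and those of H3K27me3 and H3K36me3 peaks multiples of 10 kb. H3K4me3 and H3K27me3 calls required a peak within 1 kb of either annotated end of a gene, and H3K36me3 calls required peaks over at least 20% of its body. Members that share a peak are not separate observations, so the peaks behind the main counts are given. Of 8 oocyte genes such as Ddx4, Dazl and Zp3, all 8 were marked by H3K4me3 in c13, c34, E18.5 and GV cells. Of 12 genes of ovarian somatic and surface cells, H3K4me3 marked 11 in c13, 9 in c34, 8 in E18.5 and 7 in GV cells. The shares of all genes were 71.7%, 66.7%, 61.3% and 74.8% in the same order. In c7, c13, c34, E18.5 and GV cells, H3K27me3 marked 4, 7, 2, 3 and 2 of the 8 oocyte genes. For the 12 somatic and surface genes the H3K27me3 counts were 11, 12, 11, 12 and 9. Cells of ovarian surface epithelium express simple keratins, and the part of such cells in the keratin calls was not tested.

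H3K27me3 lay over nearly all keratin genes until the GV stage. It marked 52 of 53 members in c7, 53 in c13, 53 in c34, 52 in E18.5 and 34 in GV cells. Over all protein-coding genes the shares were 46% in c7, 60.2% in c13, 43.7% in c34, 39.1% in E18.5 and 28.3% in GV cells. The member left out in c7 and E18.5 cells was Krt222, the first gene of the chromosome 11 cluster, where the first peak of both stages began 17.2 kb into the cluster. The members unmarked in GV oocytes numbered 9 of 27 on chromosome 11 and 10 of 26 on chromosome 15.

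Few and very wide peaks carried these calls. On chromosome 15, 1 peak of 870 kb held all 26 members in c7 cells, and 1 peak of 920 kb did so in E18.5 oocytes. In c13 cells the peaks were wider than the clusters, 1630 kb on chromosome 11 and 2130 kb on chromosome 15. In c34 cells 1 peak of 1210 kb held all 27 chromosome 11 members, and peaks of 210 kb and 430 kb held the 26 on chromosome 15. The first of the c34 peaks reached an end of Krt80 and covered 0.741% of its body. In E18.5 oocytes 1 peak of 1200 kb held 26 of the 27 chromosome 11 members. The c7 list was broken on chromosome 11 into peaks of 450 kb, 30 kb and 520 kb, and the members lay in the outer pair. Removing peaks of 1 Mb or more left 0 of 53 members marked in c13, 26 in c34 and 26 in E18.5 cells, since the other calls of those stages rested on such peaks. The c7 and GV lists had no such peak over the clusters.

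The edges of the H3K27me3 peaks lay close to the ends of the clusters at some stages. On chromosome 11 the c7, c34 and E18.5 peaks all ended at the same grid position, 180 kb past the end of Krt42, and the GV peak ended 30 kb past it. On chromosome 15 the last peak ended 28 kb past Krt18 in c34 cells, 128 kb past it in c7 cells and 138 kb past it in E18.5 oocytes. In percent of length, H3K27me3 covered 79.1% of the chromosome 11 cluster in c7, 100% in c13, 99.3% in c34, 98.3% in E18.5 and 78.1% in GV cells. The chromosome 15 cluster was covered to 100% in c7, 100% in c13, 89.5% in c34, 100% in E18.5 and 45.3% in GV cells. The autosomes and X as a whole were covered to 33.9% in c7, 40% in c13, 35.2% in c34, 39.3% in E18.5 and 27.4% in GV cells. The 500 kb on either side of the clusters were covered less than the clusters in every list but that of c13, where the stretch before the chromosome 15 cluster was covered to 100% as well. In c34 cells, for example, the stretch after the chromosome 15 cluster was covered to 17.6%.

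**Figure D1:**
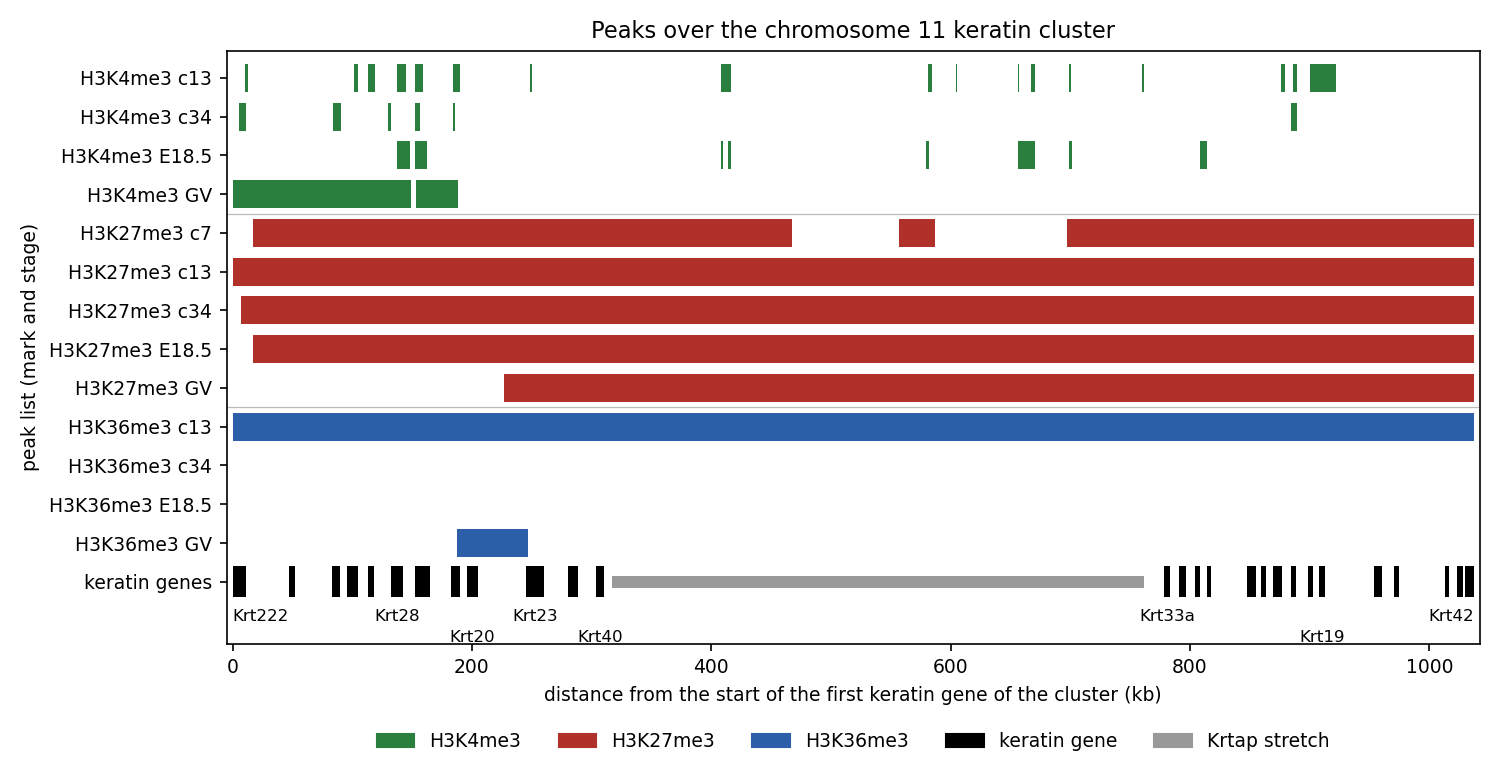
Peaks of the 13 lists over the chromosome 11 keratin cluster. The x axis is the distance in kb from the start of Krt222, each row is a peak list, bars are peaks clipped to the cluster, black boxes are keratin genes and the grey line is the stretch of Krtap genes. The H3K27me3 peak of GV oocytes begins 227 kb into the cluster, and both H3K4me3 peaks of GV oocytes lie before it.

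In GV oocytes the chromosome 11 cluster was split into a front part without H3K27me3 and a rear part with it. The front part held Krt222, Krt24, Krt25, Krt26, Krt27, Krt28, Krt10, Krt12 and Krt20. It includes keratins of the inner root sheath of the hair follicle (Krt25, Krt26, Krt27 and Krt28), Krt10 of the upper epidermis, Krt12 of the cornea and Krt20 of the intestine. The rear part, from Krt23 to Krt42, held 18 members in 1 peak of 840 kb at chr11:99460001-100300000. The same 18 members were marked by H3K27me3 in all 5 lists. They include the hair shaft keratins Krt31 to Krt36, Krt14 of the basal epidermis, Krt13 of the oral and oesophageal mucosa and Krt19 of simple epithelium.

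H3K4me3 filled the front part in GV oocytes. A peak of 153 kb held 6 members from Krt222 to Krt28, and a peak of 35 kb held Krt10 and Krt12. No H3K4me3 peak of GV oocytes lay in the rear part, and 0 of its 18 members were marked. An H3K36me3 peak of 60 kb spanned the gap between these blocks, with 1 kb of it in H3K4me3 and 20 kb in H3K27me3. It covered 37.4% of the body of Krt12, 100% of Krt20 and 13.4% of Krt23. In base pairs, 0% of the H3K4me3 length in the chromosome 11 cluster overlapped H3K27me3 in GV oocytes. Of the length outside H3K27me3, 81.1% lay in H3K4me3 and 98.2% in H3K4me3 or H3K36me3.

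The overlap of the marks on chromosome 11 differed at the other stages. Of the H3K4me3 length in the cluster, 100% lay in H3K27me3 in c13, 91.1% in c34 and 100% in E18.5 cells. H3K27me3 covered 100%, 99.3% and 98.3% of the cluster at these stages, leaving little room for H3K4me3 outside it. The overlap there was thus largely set by the H3K27me3 coverage. In c34 cells H3K27me3 reached over the whole cluster but for the first 7.24 kb, and H3K4me3 occupied 25.2 kb within the cluster, against 184 kb in GV oocytes. Of that 25.2 kb, 76.2% was also in H3K4me3 in GV oocytes, which is 10.4% of the GV length.

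**Figure D2:**
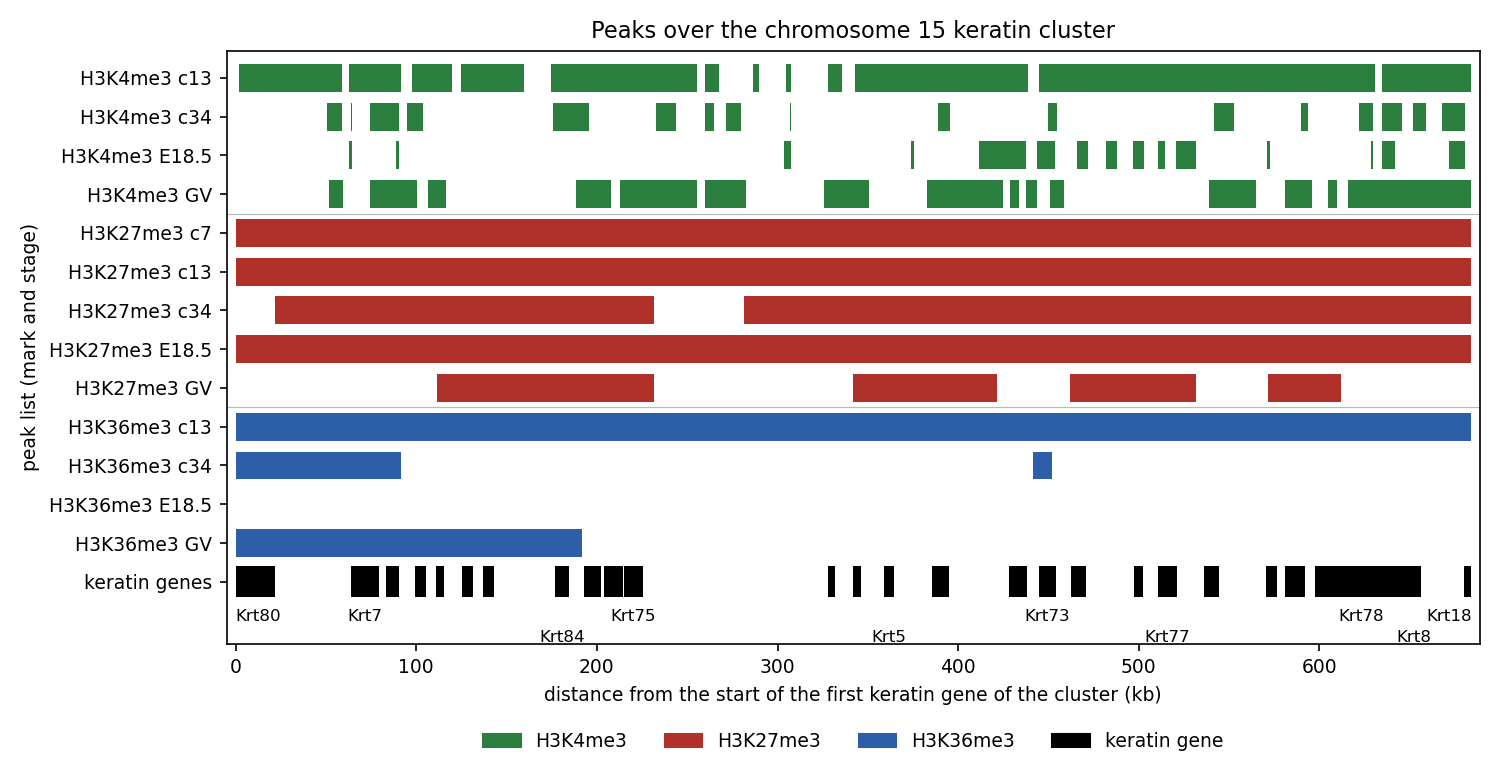
Peaks of the 13 lists over the chromosome 15 keratin cluster. The x axis is the distance in kb from the start of Krt80, each row is a peak list, bars are peaks clipped to the cluster and black boxes are keratin genes. The 4 H3K27me3 peaks of GV oocytes leave gaps that the peaks of c7, c13 and E18.5 cells cover in full and those of c34 cells in part, and the H3K36me3 peaks of c34 and GV cells lie mostly over the first genes.

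On chromosome 15 H3K27me3 was broken into 4 peaks in GV oocytes. The first, of 120 kb, held 7 members from Krt81 to Krt75, among them the hair keratins Krt81, Krt86, Krt83, Krt84 and Krt82. The others, of 80 kb, 70 kb and 40 kb, held 3 members each: Krt6a, Krt5 and Krt71, then Krt2, Krt1 and Krt77, then Krt4, Krt79 and Krt78. The 10 members outside were Krt80, Krt7, Krt87 and Krt88 at the front, Krt6b, Krt72, Krt73 and Krt76 in the gaps, and Krt8 and Krt18 at the rear. With peaks narrower than the list's median of 110 kb left out, 25 of the 53 members stayed marked and 17.6% of the chromosome 15 cluster was covered.

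Of the 10 chromosome 15 members marked by H3K27me3 in E18.5 and unmarked in GV oocytes, 9 were marked by H3K4me3 in GV oocytes. All 10 were marked there by H3K4me3 or H3K36me3. These shares, 90% and 100%, were near the 81.8% and 91.5% of all genes under the same condition. The 16 chromosome 15 members that kept the H3K27me3 call in GV oocytes had it in all 5 lists. H3K4me3 marked 8 of them (50%) in GV oocytes, against 66.1% of all genes with H3K27me3 in all 5 lists. In base pairs 33.7% of the H3K4me3 length in the chromosome 15 cluster lay in H3K27me3 in GV oocytes, against 100% in E18.5 oocytes. In E18.5 oocytes H3K27me3 covered 100% of that cluster, so no other value was possible there. H3K4me3 and H3K27me3 were thus apart on chromosome 11 in GV oocytes and in part overlapping on chromosome 15.

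Over both clusters, 19 members (35.8%) were marked by H3K27me3 in c34 and not in GV cells, against 18.1% of all genes. The reverse held for 0 members, against 2.73% of all genes. With all 53 members marked in c34 cells, no other count was possible there. The share of 18.1% is of all genes, of which 9452 were marked in c34 cells. Among genes marked in c34 cells, 19 of 53 members and 3925 of 9452 of all genes were unmarked in GV oocytes. On that base the members' share was not the higher one. All 19 were marked in GV oocytes by H3K4me3 (17) or H3K36me3 (6), or both. Among all genes, 3925 had H3K27me3 in c34 and not in GV cells, of which 90.5% had H3K4me3 in GV oocytes and 96.1% had H3K4me3 or H3K36me3. The members' shares, 89.5% and 100%, were near these. Of the 34 members with H3K27me3 in c34 and GV cells, 8 (23.5%) had H3K4me3 in GV oocytes, against 63.9% of the 5527 genes with H3K27me3 in both. On chromosome 11 these were 0 of 18 members, which all shared 1 H3K27me3 peak in GV oocytes. On chromosome 15 they were 8 of 16 (50%).

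H3K4me3 reached fewer keratin genes than genes in general, and more of them on chromosome 15 than on chromosome 11. It marked 36 of 53 members in c13, 16 in c34, 14 in E18.5 and 25 in GV cells. Of all genes, H3K4me3 marked 71.7% in c13, 66.7% in c34, 61.3% in E18.5 and 74.8% in GV cells, and the members' shares were 67.9%, 30.2%, 26.4% and 47.2% in the same order. On chromosome 11 the counts were 10, 5, 5 and 8 of 27, and on chromosome 15 they were 26, 11, 9 and 17 of 26. The peaks behind these calls numbered 10, 6, 4 and 2 on chromosome 11 and 9, 11, 10 and 12 on chromosome 15. The c13 count was thus near the share of all genes, and on chromosome 15 it took in every member. When a peak at both gene ends was required, 6 members stayed marked in c34 and 4 in E18.5 cells.

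The H3K4me3 peaks differed in width between the stages. On chromosome 15 in c13 cells, 12 peaks had a median width of 32 kb and the widest, of 186 kb, held 8 members from Krt73 to Krt78. They covered 84.4% of the cluster, 98.3% of the 500 kb before it and 96% of the 500 kb after it, against 9.66% of the autosomes and X. In the same list the chromosome 11 cluster was covered to 7.91%, with 18 peaks of a median 3 kb. In c34 cells the peaks had a median width of 4 kb on chromosome 11 and 8 kb on chromosome 15, and in E18.5 oocytes 3 kb and 6 kb. In GV oocytes they had a median width of 94 kb on chromosome 11 and 19 kb on chromosome 15, where the whole list had a median of 11 kb and covered 24.5% of the autosomes and X.

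Members marked by H3K4me3 in all 4 lists were Krt222, Krt28, Krt10, Krt7, Krt87, Krt73 and Krt18. The call of Krt222 is shared with its neighbour Smarce1, a chromatin remodelling gene: in E18.5 oocytes it rested on 1 peak, at chr11:99229001-99232000, which also covered an annotated end of Smarce1. A further 13 members had H3K4me3 in no list, and all 13 were on chromosome 11. They were Krt20, Krt23, the hair shaft keratins Krt39, Krt40, Krt33a, Krt33b, Krt32 and Krt35, and Krt9, Krt14, Krt16, Krt17 and Krt42. Of the keratins, 13.2% had H3K4me3 in all 4 lists and 24.5% in none, against 54.9% and 17.7% of all genes.

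**Figure D3:**
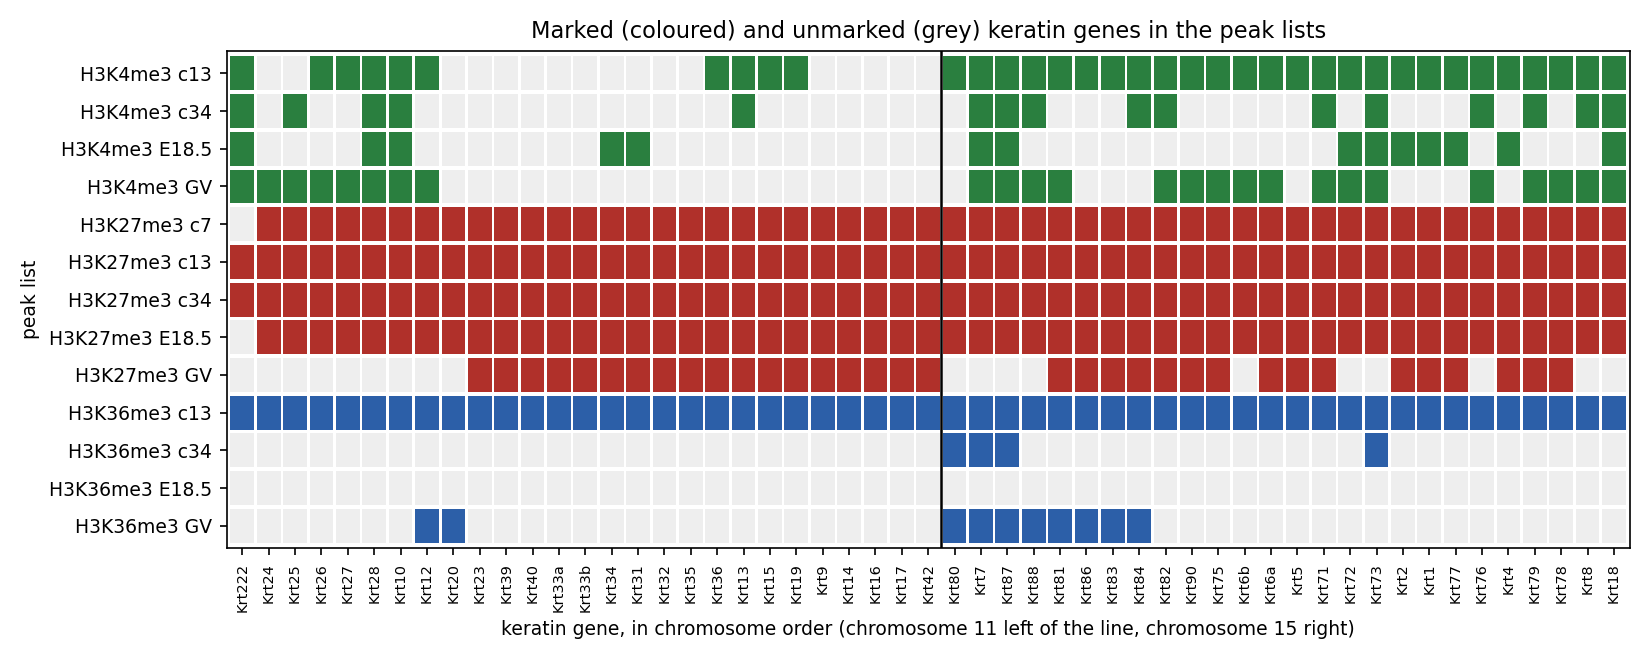
Calls of the 53 keratin genes in the 13 lists. Columns are genes in chromosome order, rows are lists, and a coloured cell (green H3K4me3, red H3K27me3, blue H3K36me3) is a marked gene and a grey cell an unmarked one. The H3K27me3 rows are full but for Krt222 until GV oocytes, where 19 of the 53 cells are grey.

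Differences between cultured and animal stages were read gene by gene. In c34 cells 2 members had H3K4me3 that GV oocytes lacked, the hair keratin Krt84 and the mucosal keratin Krt13. Conversely, 11 members had H3K4me3 in GV oocytes that c34 cells lacked. By covered bases in the 5 kb around both ends, the 8 with the largest difference were Krt26, Krt75, Krt90, Krt27, Krt24, Krt6a, Krt72 and Krt6b, and Krt81, Krt12 and Krt78 followed. Krt26 had 0 bases in H3K4me3 there in c34 cells and 19482 in GV oocytes, while Krt84 had 13820 in c34 cells and 820 in GV oocytes. Krt12 had 2000 bases in c34 cells, outside the window of the call, and 10337 in GV oocytes. Of the keratins, 3.77% were marked in c34 and not in GV cells and 20.8% in GV and not in c34 cells, against 2.76% and 10.8% of all genes. Unmarked in both were 49.1% of the keratins and 22.4% of all genes. Among genes unmarked in c34 cells, the share marked in GV oocytes was thus no higher for keratins.

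Between c13 cells and E18.5 oocytes the H3K4me3 difference ran the other way. In c13 cells 24 members had H3K4me3 that E18.5 oocytes lacked, 45.3% of the keratins against 11.1% of all genes, and 17 of the 24 lay on chromosome 15. The reverse held for 2 members, the neighbouring hair keratins Krt34 and Krt31, which shared 1 peak of 6 kb in E18.5 oocytes. In c13 cells H3K4me3 covered 84.4% of the chromosome 15 cluster and 98.3% and 96% of the 500 kb before and after it. The c13 coverage there was thus not limited to keratin genes. Among the 24 were Krt75, Krt78, Krt79 and Krt90, each with 20002 bases of its end windows in peaks in c13 cells, and the values in E18.5 oocytes were 0 for these. Krt5, the type II keratin of basal epidermis, had 15837 bases in c13 cells and 0 in E18.5 oocytes. Between GV and E18.5 oocytes, 17 members (32.1%) had H3K4me3 in GV oocytes alone and 6 (11.3%) in E18.5 oocytes alone, against 17.2% and 3.72% of all genes. The 6 were Krt34, Krt31, Krt2, Krt1, Krt77 and Krt4, and all 6 were marked by H3K27me3 in both E18.5 and GV oocytes. Without H3K4me3 in both were 41.5% of the keratins and 21.5% of all genes. Among genes unmarked in E18.5 oocytes, the share marked in GV oocytes was thus no higher for keratins.

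H3K36me3 was scarce over keratin genes outside c13. It marked 53 of 53 members in c13, 4 in c34, 0 in E18.5 and 10 in GV cells, against 67.8%, 63.5%, 22.1% and 62.2% of all protein-coding genes in the same order. The c13 call rested on 2 peaks, of 17950 kb over chromosome 11 and 11370 kb over chromosome 15, which ran far past the clusters on both sides. Without peaks of 1 Mb or more, 0 members were marked in c13 cells. In E18.5 oocytes the 500 kb on each side of both clusters were also without H3K36me3, so the absence of calls was not limited to the keratin genes.

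In c34 cells the marked members were Krt80, Krt7 and Krt87, in a peak of 270 kb that began before the cluster, and Krt73, in a separate peak of 10 kb that covered 73.9% of its body. In GV oocytes a peak of 260 kb held 8 members, Krt80, Krt7, Krt87, Krt88, Krt81, Krt86, Krt83 and Krt84. The other pair was Krt12 and Krt20 on chromosome 11. Of the members, 3 were marked in both c34 and GV cells, 1 in c34 and not in GV cells (Krt73) and 7 in GV and not in c34 cells. Their shares were 5.66%, 1.89% and 13.2% of the keratins, against 57%, 6.46% and 5.23% of all genes. Unmarked in both were 79.2% of the keratins and 31.3% of all genes. Among genes without H3K36me3 in c34 cells, the share marked in GV oocytes was thus no higher for keratins. Of the 102 kb of H3K36me3 in the chromosome 15 cluster in c34 cells, 90.2% was also in the GV list, which is 47.8% of the 192 kb there. On chromosome 11 c34 cells had 0 kb and GV oocytes 60 kb. The 500 kb before and after the chromosome 11 cluster were covered to 77.4% and 62% in c34 cells and to 75.4% and 74% in GV oocytes, against 0% and 5.78% inside the cluster.

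**Figure D4:**
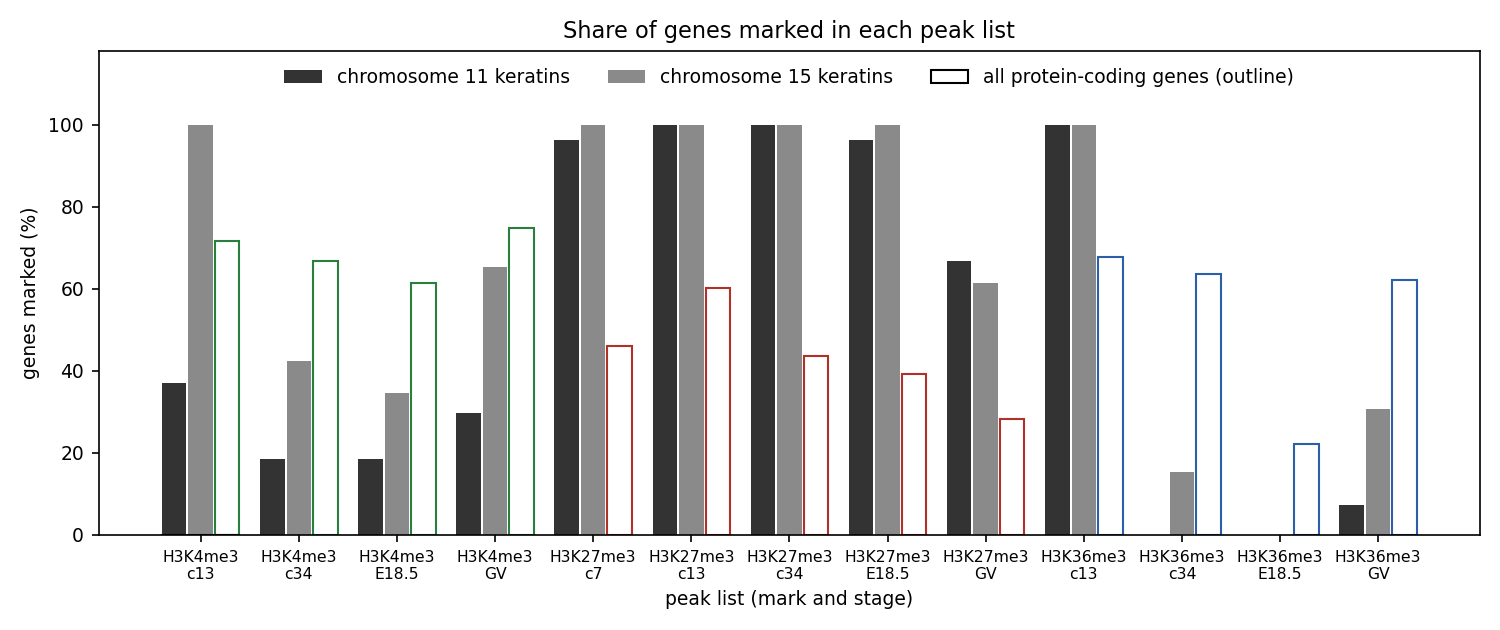
Share of genes marked in each list. Bars give, in percent, the chromosome 11 keratins (dark), the chromosome 15 keratins (grey) and all protein-coding genes (outlined in the colour of the mark); the x axis gives mark and stage. The keratin bars stand above the outlined bars in every H3K27me3 list and below them in the H3K36me3 lists of c34, E18.5 and GV cells.

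The combinations of the marks moved with these calls. In c13 cells 36 members had all 3 marks and 17 had H3K27me3 with H3K36me3, against 43% and 7.71% of all genes. In c34 cells 36 members (67.9%) had H3K27me3 alone and 13 (24.5%) had it with H3K4me3, against 12.1% and 9.5% of all genes. In E18.5 oocytes 39 members (73.6%) had H3K27me3 alone and 13 had it with H3K4me3, against 13.8% and 15.5%. In GV oocytes 23 members (43.4%) had H3K27me3 alone, 13 (24.5%) H3K4me3 alone and 7 both, and 4 had H3K4me3 with H3K36me3. The shares of all genes in GV oocytes were 8.75%, 11.6%, 8.93% and 46%. Members without any of the marks numbered 0 at each of these 4 stages, against 15.5%, 11.5%, 15.4% and 8.48% of all genes in c13, c34, E18.5 and GV cells. In c13 and c34 cells this followed from the H3K27me3 calls at all 53 members. In E18.5 oocytes it nearly did, with 52 members called.

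Keratin classes were also counted apart, with the GV list given here because H3K27me3 held nearly all members at the other stages. Of 15 hair keratins, 14 were marked by H3K27me3 and 3 by H3K4me3 in GV oocytes, and Krt87 was the one without H3K27me3. Of 8 keratins of the inner root sheath and companion layer, 2 were marked by H3K27me3 and 8 by H3K4me3 in GV oocytes. The same 8 had 7, 4 and 3 members with H3K4me3 in c13, c34 and E18.5 cells, against 71.7%, 66.7% and 61.3% of all genes. Of 20 keratins of stratified epithelia, 14 had H3K27me3 and 8 had H3K4me3 in GV oocytes. Of 6 simple epithelial keratins, 2 had H3K27me3 and 3 had H3K4me3 there. The shares of all genes in GV oocytes were 28.3% for H3K27me3 and 74.8% for H3K4me3. Members of a class often share a peak, and 5 H3K27me3 peaks of GV oocytes held all 34 members called. The part of position in these counts was not tested.

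The simple epithelial keratins are those that early embryonic and glandular epithelia use. Krt8 and Krt18, which pair with each other, were both in H3K27me3 in c7, c13, c34 and E18.5 cells and outside it in GV oocytes. H3K4me3 covered 100% of the body of Krt8 in c13, 56.9% in c34, 0% in E18.5 and 100% in GV cells. For Krt18 the values were 100% in c13, 20.6% in c34, 20.6% in E18.5 and 100% in GV cells. In GV oocytes both lay, with an end of Krt78, in 1 H3K4me3 peak of 95 kb.

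Krt7, a type II keratin of simple and ductal epithelium, had the same H3K27me3 calls as that pair and H3K36me3 over 100% of its body in c13, c34 and GV cells. H3K4me3 covered 100% of its body in c13, 35.1% in c34, 3.88% in E18.5 and 31.2% in GV cells, and in GV oocytes the peak lay at the far end and not at the start. Krt19, a type I keratin of ducts, kept H3K27me3 over 100% of its body in all 5 lists and had H3K4me3 in c13 cells alone. Krt20, of intestinal epithelium, had H3K4me3 in no list, and in GV oocytes it had H3K36me3 over 100% of its body and no H3K27me3. Krt23 had H3K27me3 in all 5 lists and an H3K4me3 call in none, although a c13 peak covered 13.2% of its body.

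Partner genes on chromosomes 15 and 11 had unlike H3K4me3 calls in each of the pairs below. Krt5 and Krt14, the pair of basal epidermis, both had H3K27me3 in all 5 lists. H3K4me3 lay at Krt5 in c13 cells and at Krt14 in none of the lists. Krt1 and Krt10, the pair of the upper epidermis, differed in GV oocytes. Krt10 had H3K4me3 in all 4 lists, over 55.3% of its body in c13, 30.7% in c34, 79.9% in E18.5 and 93.9% in GV cells, and no H3K27me3 in GV oocytes. Krt1 had H3K4me3 over 100% of its body in c13, 0% in c34, 100% in E18.5 and 0% in GV cells, and H3K27me3 in all 5 lists.

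The mucosal pair Krt4 and Krt13 had H3K27me3 in all 5 lists, over 76.4% of the body of Krt4 and 100% of that of Krt13 in GV oocytes. Krt4 had H3K4me3 in c13 and E18.5 cells and Krt13 in c13 and c34 cells. Of the inner root sheath pair, Krt71 had H3K4me3 in c13, c34 and GV cells and H3K27me3 in all 5 lists. Its partner Krt27 had H3K4me3 in c13 and GV cells, over 92.1% and 100% of its body, and no H3K27me3 in GV oocytes. Krt12 of the cornea had H3K4me3 over 80.7% of its body in c13, 28.9% in c34, 0% in E18.5 and 77% in GV cells. Krt35 of the hair shaft had no H3K4me3 in any list and H3K27me3 in all 5. Its partner Krt85 was not analysed here.

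Keratin promoters held few CpG dinucleotides. The median was 5 in the 36 members with an annotated start, from 2 to 21, against 14 in all 17274 promoters. The ratio of observed to expected CpG had a median of 0.27 in keratins and 0.59 in all promoters. By count, Krt7 with 21 CpG and Krt18 with 17 were the members above the median of all promoters. By ratio, Krt28 with 0.78, Krt7 with 0.64 and Krt18 with 0.60 were above it. H3K4me3 lay within 1 kb of the start in all 4 lists at Krt18, and also at Krt10, which had 2 CpG and a ratio of 0.15. At Krt7 it did so in c13, c34 and E18.5 cells. Krt8 had 6 CpG.

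Median CpG counts of keratin starts with and without H3K4me3 were closer to each other than those of all promoters in each list. In c34 cells the median was 4 at the 11 keratin starts within 1 kb of a peak and 6 at the other 25, where all promoters had 21 with a peak and 3 without. In GV oocytes it was 6 at 17 keratin starts with a peak and 4 at 19 without, where all promoters had 19 and 3. In c13 cells it was 6 at 22 starts with a peak and 4 at 14 without, against 20 and 2, and in E18.5 oocytes 6 at 9 and 5 at 27, against 22 and 3.

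The letters TATAAA, searched on the sense strand with the first letter 50 to 15 bases before the start, were found in 15 of 36 keratin promoters (41.7%) and in 3.34% of all promoters. On chromosome 11 they were in 12 of 20 promoters, and on chromosome 15 in 3 of 16. In Krt28 they began 30 bases before the start. Of the 12 on chromosome 11, those of Krt25, Krt26, Krt27, Krt28 and Krt10 lay at starts with H3K4me3 in GV oocytes and those of Krt12, Krt20, Krt40, Krt33b, Krt34, Krt31 and Krt32 at starts without it. A match is a description of the letters in this window and not evidence of binding.

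**Figure D5:**
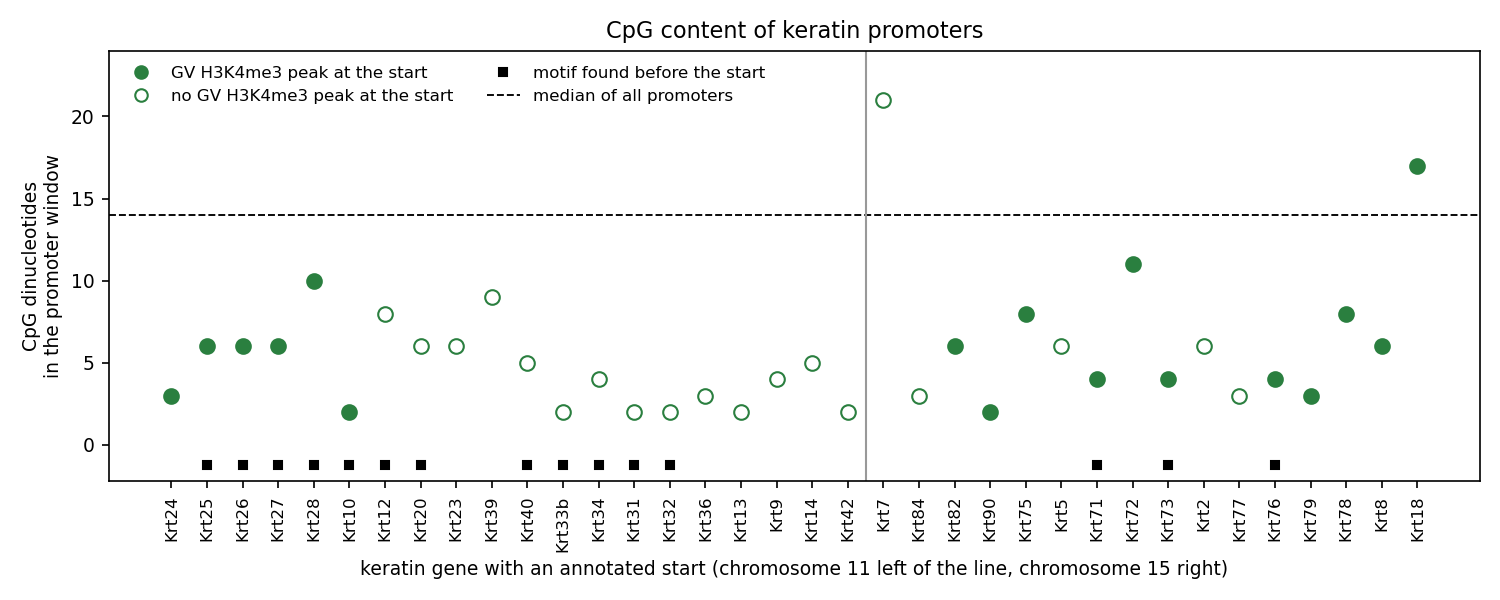
CpG dinucleotides in the 300 base promoter windows of the 36 keratin genes with an annotated start. Each point is a gene in chromosome order, filled where an H3K4me3 peak of GV oocytes lay within 1 kb of the start; the dashed line is the median of all promoters, 14, and squares mark the TATA motif. Krt7 and Krt18 are the points above the line.

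The stretch between Krt40 and Krt33a holds genes of keratin-associated proteins, which cross-link hair keratins. The 23 Krtap genes there, at chr11:99550132-99993994, were in H3K27me3 at all 23 in c13, c34, E18.5 and GV cells and at 18 in c7 cells. H3K4me3 marked 2 in c13, 0 in c34, 1 in E18.5 and 0 in GV cells, and H3K36me3 marked 23 in c13 cells and 0 at the other stages. The stretch was covered by H3K27me3 to 54.9% in c7 cells and 100% in the other 4 lists. The gap in c7 cells lay within it, and the keratin genes on either side were marked.

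The 20 nearest genes outside the clusters, 5 on each side, that are neither keratin nor Krtap genes had fewer H3K27me3 and more H3K4me3 calls in proportion than the keratins in c34, E18.5 and GV cells. H3K27me3 marked 16 in c7, 20 in c13, 12 in c34, 17 in E18.5 and 4 in GV cells. H3K4me3 marked 18 in c13, 17 in c34, 16 in E18.5 and 18 in GV cells, and H3K36me3 20, 15, 0 and 14. After Krt18 the 5 neighbours, from Eif4b, a translation factor gene, to Soat2, had H3K27me3 at 0 of 5 in c34 and 0 of 5 in GV cells, but at 5 of 5 in c7, c13 and E18.5 cells. After Krt42 the 5 neighbours, which include the junction gene Jup, had H3K27me3 at 5 of 5 in c34 and 0 of 5 in GV cells.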

How the data were processed

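Per the labels, H3K4me3, H3K27me3, H3K36me3 and input were sequenced in 35 libraries. The authors deposited 13 peak lists, whose unit is other than a count: per the file headers they hold only a chromosome, a start and an end in base pairs. The submitters' processing notes name Bowtie2 2.3.4.1, SICER 0.0.41, MACS2 2.1.1 and the mm10 build. The sources used here do not say how each list was called, at what threshold, or whether libraries were pooled, so depth cannot be told apart from stage. Starts were raised by 1 so that coordinates are 1-based. Genes came from RefSeq for GRCm38.p6, and an overlap of 1 bp was enough. The calls were tested on simulated data. The members, classes, gene lists and the rule for named genes were chosen with earlier results of these data known. The rule names the simple and the outermost members, partner pairs, up to 8 members that differ between stages or are marked in every list or in none, and any marked where 5 or fewer are. Further names were chosen after their values were seen. Python 3.11.15 and numpy 2.4.6 were used. Input libraries were not used here, and the type of each chain was not checked against protein sequence.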

Additional observations from a re-analysis of the deposited data

Results flagged for a closer look

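The later stage differed from the earlier one in opposite directions in culture and in animals for H3K4me3 and H3K36me3 over keratin genes. The difference between the pairs of stages was not tested, since each stage has 1 list. For H3K4me3, the number of marked members changed by -20 for c34 minus c13 and by 11 for GV minus E18.5. Over all protein-coding genes the same differences were -1068 and 2924. On chromosome 15 the H3K4me3 count was 26 of 26 members in c13 cells, through 9 peaks, and 11 of 26 in c34 cells. For H3K36me3 the members changed by -49 for c34 minus c13 and by 10 for GV minus E18.5, and all genes by -949 and 8674. The c13 value of H3K36me3 rests on 2 peaks, of 17950 kb and 11370 kb.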

How the results depend on the processing

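Of the counts of members under the alternatives, 60 stayed within a factor of 1.5 of the reported count and 6 did not. Requiring a peak at both gene ends left 6 members marked by H3K4me3 in c34 and 4 in E18.5 cells. Without peaks of 1 Mb or more, H3K27me3 marked 0 members in c13, 26 in c34 and 26 in E18.5 cells, and H3K36me3 marked 0 in c13 cells, because fewer peaks were left. Coverage of the clusters stayed within a binomial interval over grid bins in 46 cases and left it in 19. Bins under the same peak are not separate observations, so this interval is only a yardstick and measures no spread between replicates. Over member bodies, H3K4me3 covered 21.9% (c13), 12% (c34), 8.4% (E18.5) and 35.5% (GV) on chromosome 11 and 97.4%, 25.7%, 17.8% and 52% on chromosome 15, and H3K27me3 on chromosome 11 93.9% in c7 and 57.9% in GV cells. Without the Krtap stretch, H3K4me3 covered 10.8% in c13, 4.25% in c34 and 31.1% in GV cells, and H3K27me3 97.1% in c7 and 61.7% in GV cells. When peaks under their list's median width were left out, H3K4me3 covered 5.88% of chromosome 11 in c13 and 42% of chromosome 15 in GV cells, H3K36me3 0% of chromosome 11 in GV cells and H3K27me3 17.6% of chromosome 15 in GV cells. Other causes were not tested. No paired analysis was possible because each stage and mark has 1 list and no test was made. Leaving out libraries was not possible for the same reason, and depth is unknown.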

Other observations

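Other genes of filaments and epithelia were counted in the same lists. Of 15 further intermediate filament genes, such as Vim, Lmna and Nes, H3K27me3 marked 11 in c7, 13 in c13, 8 in c34, 8 in E18.5 and 6 in GV cells, and H3K4me3 marked 15, 12, 13 and 14 in c13, c34, E18.5 and GV cells. Of 17 genes of epithelial junctions and cornification, such as Dsp and Cdh1, H3K27me3 marked 8, 10, 11, 7 and 9 in c7, c13, c34, E18.5 and GV cells, and H3K4me3 marked 15, 12, 11 and 14 in the 4 stages from c13. Of 10 epithelial transcription factors, such as Trp63 and Grhl2, H3K4me3 marked 9 in each of its 4 lists, and H3K27me3 marked 7, 10, 9, 3 and 4. Of all genes, H3K27me3 marked 46%, 60.2%, 43.7%, 39.1% and 28.3% in c7, c13, c34, E18.5 and GV cells. H3K4me3 marked 71.7%, 66.7%, 61.3% and 74.8% of all genes in c13, c34, E18.5 and GV cells.

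Krtap genes outside the keratin cluster numbered 33. H3K27me3 marked 25 of them in c7, 23 in c13, 16 in c34, 26 in E18.5 and 7 in GV cells, and H3K4me3 marked 5 in c13, 1 in c34, 0 in E18.5 and 21 in GV cells. H3K36me3 marked 10, 5, 2 and 6 in c13, c34, E18.5 and GV cells, against 67.8%, 63.5%, 22.1% and 62.2% of all genes. For H3K27me3 and H3K4me3 the shares of all genes are those of the preceding paragraph. These lists hold genes that share peaks, and none of the differences was tested.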
